A study of Mus musculus and Homo sapiens with 8 samples.

Results

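The 26S proteasome is the protease that degrades ubiquitin-tagged proteins in the cytosol and nucleus. Its 31 subunit genes described here were chosen by a list of Ensembl identifiers that names PSMA1 to PSMA7, PSMB1 to PSMB7, PSMC1 to PSMC6 and 11 PSMD genes. All 31 were found among the 60675 rows of the deposited table, and all 31 passed the filter on low counts. The symbols were paired with the identifiers by the order in which that list names both, since the deposited tables give identifiers alone. Their RNA was measured by RNA-seq in 4 libraries of HepG2, an established human liver carcinoma cell line, at 25 population doublings. There were 2 control libraries, from cells given water for 24 h, and 2 arsenite libraries, from cells given arsenite for 24 h. Libraries of a group are numbered here by their order in the series. Arsenite is the trivalent oxyanion of arsenic and binds protein thiols. A dose of 5 nM stands on the labels of all 4 libraries, the water controls included. The same series holds 4 libraries of mouse NIH 3T3 cells, which were not analysed here.

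The proteasome consists of a barrel, the 20S core, and a cap, the 19S regulatory particle. The outer alpha rings of the core, made of PSMA proteins, gate the entrance of the channel. The inner beta rings, made of PSMB proteins, carry the proteolytic sites on PSMB5, PSMB6 and PSMB7. In the cap, a ring of PSMC ATPases unfolds substrates, PSMD1, PSMD2 and PSMD4 belong to the base that receives ubiquitin-tagged proteins, and the other PSMD proteins used here form the lid, where PSMD14 removes the ubiquitin chain. Cells that have too little proteasome activity are known to raise the transcription of subunit genes together, and arsenite, which damages proteins, is a classic inducer of protein quality control.

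After arsenite, 15 of the 31 subunit genes were higher, 4 were lower and 12 were not called, at a threshold of 0.05 on the Benjamini-Hochberg adjusted p of edgeR's quasi-likelihood test. Among all 14389 genes tested, 11.8% were higher and 18.8% were lower by the same rule. The median log2 fold change was 0.30 over the 31 genes and -0.02 over all genes tested. The summed level of the 31 genes was 4295 and 4282 CPM (counts scaled to the library total) in the controls and 5745 and 5019 CPM with arsenite. The groups of this sum did not overlap, at 4288 ± 9.1 CPM in the controls and 5382 ± 513 CPM with arsenite (SD, n = 2). The genes that rose were 5 of the beta ring, 2 of the alpha ring and 8 of the cap, and those that fell were 3 of the alpha ring and 1 of the lid. Fold changes come from the fit, which scales libraries by TMM, and so differ somewhat from ratios of the CPM values. In bulk RNA, fewer cells of a type and less RNA per cell cannot be told apart.

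The libraries were of nearly equal depth. The controls held 26965049 and 27481613 counts, the arsenite libraries 27192636 and 27361110. The labels do not state whether each library had its own culture. The p-values therefore cover only the spread among these samples, which may be technical. The fit took the spread of each gene from the trend across genes and gave no weight to the gene's own replicates. A group of 23 genes had at most 3 counts each over both controls and at least 10 in each arsenite library, where they summed to 1377 and 1144. It held none of the subunit genes, and its part in the results was not tested.

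**Figure D1:**
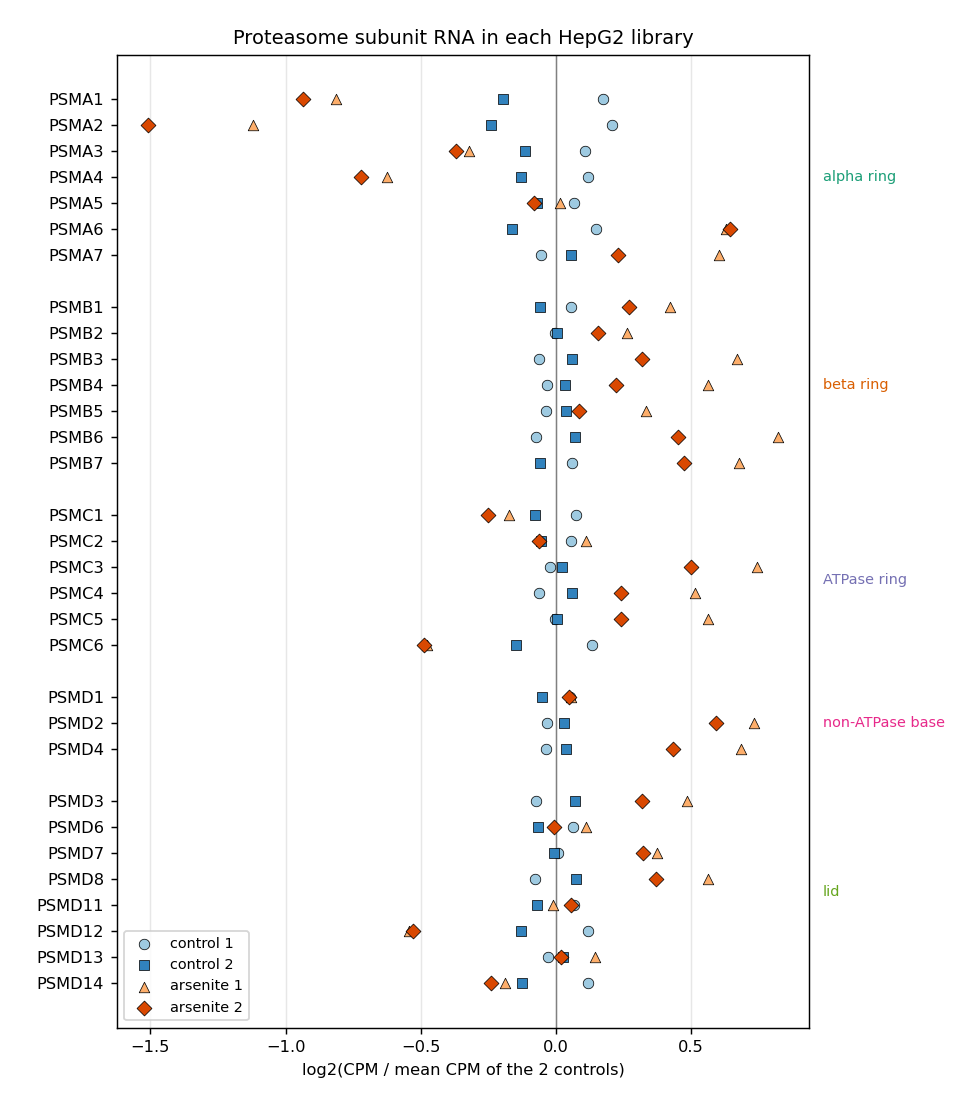
Level of each proteasome subunit gene in the 4 HepG2 libraries, as the log2 of its CPM over the mean CPM of the 2 controls. Each symbol is 1 library, and genes are grouped by their place in the complex. All 7 beta-ring genes lie above both controls in both arsenite libraries, and PSMA1, PSMA2, PSMA3 and PSMA4 lie below both. Of all genes tested, 25.5% lie above both controls and 41.2% below both.

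In the beta ring, all 7 genes were above both controls in both arsenite libraries, and 5 of them (PSMB1, PSMB3, PSMB4, PSMB6 and PSMB7) rose. None fell. Among all genes tested, 25.5% were above by position and 11.8% were called higher. All 7 were among the 2878 genes tested with the highest mean CPM, of which 43.2% were above by position and 27.1% were called higher. The median length of the ring was 1787 bp, against 4468 bp for all genes tested. The summed level of the ring was 1103 and 1113 CPM in the controls and 1608 and 1352 CPM with arsenite. The median log2 fold change of the ring was 0.49.

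The catalytic subunits did not all pass the test. PSMB6 (ENSG00000142507), which carries the caspase-like site, stood at 137.0 and 151.3 CPM in the controls and at 254.5 and 197.1 CPM with arsenite. Both arsenite libraries were above both controls, arsenite 1 further than arsenite 2. PSMB6 rose by 0.73 on the log2 scale (SE 0.16), or 1.66-fold, at an adjusted p of 0.000118 (edgeR, Benjamini-Hochberg). PSMB7 (ENSG00000136930), the trypsin-like subunit, stood at 176.8 and 162.7 CPM in the controls and at 271.1 and 235.8 CPM with arsenite. The groups did not overlap here either. PSMB7 rose by 0.66 on the log2 scale (SE 0.16), or 1.58-fold, at an adjusted p of 0.000504 (edgeR, Benjamini-Hochberg).

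PSMB5 (ENSG00000100804) carries the chymotrypsin-like site, the main target of the drug bortezomib. It stood at 163.7 and 172.2 CPM in the controls and at 211.6 and 178.2 CPM with arsenite. Arsenite 2 was barely above control 2, and arsenite 1 was well above it. The log2 fold change of 0.30 (SE 0.16) did not pass, with an adjusted p of 0.151 (edgeR, Benjamini-Hochberg) and a 95% interval from -0.02 to 0.62. That interval overlaps those of PSMB6, from 0.41 to 1.05, and PSMB7, from 0.34 to 0.98, and whether the catalytic subunits differ from each other was not tested.

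The non-catalytic beta subunits shape the ring. PSMB3 (ENSG00000277791) rose from 110.4 ± 6.6 to 156.5 ± 26.9 CPM (SD, n = 2), 1.504-fold. PSMB4 (ENSG00000159377) rose from 166.9 ± 5.7 to 220.7 ± 36.5 CPM (SD, n = 2), 1.402-fold. PSMB1 (ENSG00000008018) rose from 217.5 ± 12.1 to 276.7 ± 20.4 CPM (SD, n = 2), 1.35-fold. Their adjusted p-values in edgeR (Benjamini-Hochberg) were 0.00294, 0.0131 and 0.028. In a test against a 1.2-fold change the calls of PSMB4 (0.103) and PSMB1 (0.166) were lost, and that of PSMB3 was kept (0.0397). The PSMB1 call was also lost with library size alone (0.0799, all edgeR, Benjamini-Hochberg). PSMB2 (ENSG00000126067) had 131.5 ± 0.60 CPM in the controls and 152.0 ± 8.0 CPM with arsenite (SD, n = 2), and its log2 fold change of 0.29 did not pass (adjusted p = 0.169, edgeR, Benjamini-Hochberg).

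The alpha ring was divided. Of its 7 genes, PSMA6 and PSMA7 rose, PSMA1, PSMA2 and PSMA4 fell, and PSMA3 and PSMA5 were not called. Among all genes tested, 11.8% were called higher and 18.8% lower. By position, 2 of the 7 had both arsenite libraries above both controls and 4 had both below, against 25.5% and 41.2% of all genes tested. PSMA1, PSMA2 and PSMA6 had at most 556 counts in a library. Their levels and changes are uncertain, because the handling of reads shared with other genes or copies is not known. The median log2 fold change of the ring was -0.26, with a range from -1.22 to 0.72. The summed level of the ring was 733 and 711 CPM in the controls and 864 and 717 CPM with arsenite, so that arsenite 2 lay between the controls. More than any other gene, PSMA7 made up that sum, with 366.9 and 396.6 CPM in the controls and 579.9 and 447.2 CPM with arsenite.

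PSMA2 (ENSG00000106588) had the lowest log2 fold change of the 31 genes. Control 1 and control 2 held 194 and 145 of its counts, arsenite 1 and arsenite 2 held 78 and 60, and the CPM values in that order were 7.19, 5.28, 2.87 and 2.19. Both arsenite libraries were below both controls, and the level was low throughout. The fit gave a log2 fold change of -1.22 (SE 0.24), which is 2.33-fold lower, at an adjusted p of 9.03e-06 (edgeR, Benjamini-Hochberg). PSMA1 (ENSG00000129084) held 19.7 and 15.3 CPM in the controls and 9.93 and 9.14 CPM with arsenite. The groups did not overlap, and the controls differed from each other more than the arsenite libraries did. PSMA1 fell by 0.79 on the log2 scale (SE 0.20), or 1.73-fold, at an adjusted p of 0.000782 (edgeR, Benjamini-Hochberg).

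PSMA4 (ENSG00000041357) encodes the alpha subunit whose tail, in yeast, is a main part of the closed gate. It held 108.5 and 91.2 CPM in the controls and 64.7 and 60.6 CPM with arsenite. Unlike PSMA1 and PSMA2 it was a well-covered gene, with 1659 counts in its lowest library. It fell by 0.59 on the log2 scale (SE 0.17), or 1.51-fold, at an adjusted p of 0.00401 (edgeR, Benjamini-Hochberg). PSMA3 (ENSG00000100567) was also below both controls in both arsenite libraries, at 92.8 ± 10.1 CPM in the controls and 73.1 ± 1.7 CPM with arsenite (SD, n = 2). Its log2 fold change of -0.26 did not pass (adjusted p = 0.242, edgeR, Benjamini-Hochberg).

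PSMA6 (ENSG00000100902) went the other way. It held 14.4 and 11.6 CPM in the controls and 20.1 and 20.3 CPM with arsenite, and the arsenite libraries were nearly equal. PSMA6 rose by 0.72 on the log2 scale (SE 0.20), or 1.64-fold, at an adjusted p of 0.00205 (edgeR, Benjamini-Hochberg). PSMA7 (ENSG00000101182) rose 1.43-fold, with an adjusted p of 0.00617 (edgeR, Benjamini-Hochberg). PSMA5 (ENSG00000143106) had overlapping groups, 111.4 ± 7.6 CPM in the controls and 108.8 ± 5.1 CPM with arsenite (SD, n = 2). Its log2 fold change was 0.05 with the TMM scaling of the fit and -0.03 with library size alone, neither of them called.

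**Figure D2:**
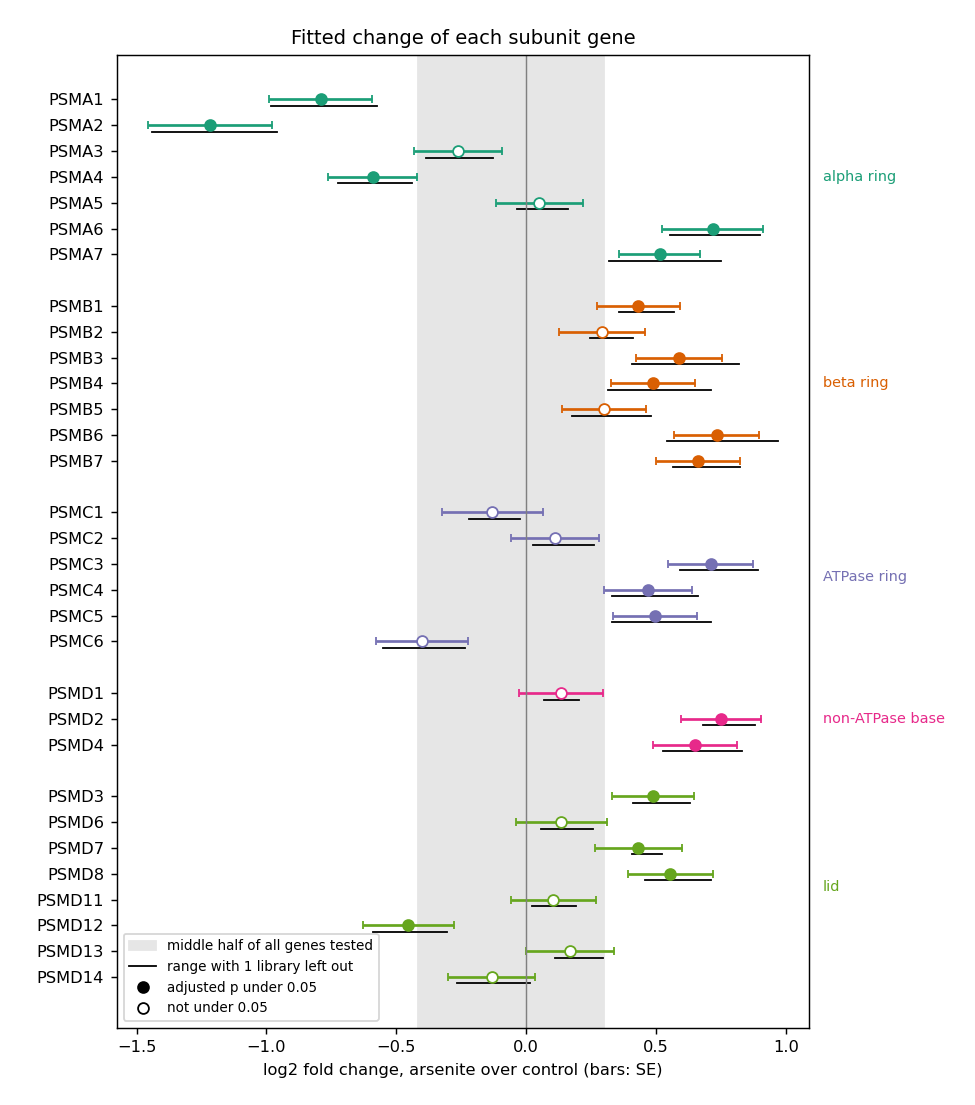
Fitted log2 fold change of each subunit gene, arsenite over control, with its SE as a bar. Filled circles have an adjusted p under 0.05 in edgeR, the thin black line under each is the range when 1 of the 4 libraries is left out, and the grey band from -0.42 to 0.30 spans the lower to the upper quartile of all genes tested. The beta ring lies wholly on the higher side, whereas the alpha ring runs from -1.22 for PSMA2 to 0.72 for PSMA6. PSMA2 and PSMA6 had at most 556 counts in a library.

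The ATPase ring unfolds substrates and threads them into the core. PSMC3, PSMC4 and PSMC5 rose, and PSMC1, PSMC2 and PSMC6 were not called. Called higher were 11.8% of all genes tested and 27.1% of the 2878 genes with the highest mean CPM, which include all genes of this ring but PSMC1 and PSMC6. PSMC3 (ENSG00000165916) held 133.8 and 137.8 CPM in the controls and 227.2 and 192.1 CPM with arsenite, 1.64-fold higher (adjusted p = 0.000206, edgeR, Benjamini-Hochberg). The controls were close together and both arsenite libraries stood well above them. PSMC5 (ENSG00000087191) rose 1.41-fold, from 150.7 ± 0.63 to 200.3 ± 31.4 CPM, and PSMC4 (ENSG00000013275) rose 1.38-fold, from 86.0 ± 5.1 to 112.1 ± 15.0 CPM (SD, n = 2). Their adjusted p-values were 0.0123 and 0.0234 (edgeR, Benjamini-Hochberg). Both calls were lost in a test against a 1.2-fold change (0.098 for PSMC5 and 0.133 for PSMC4). The PSMC4 call was also lost with library size alone (0.0669, all edgeR, Benjamini-Hochberg).

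PSMC6 (ENSG00000100519) lay below both controls with arsenite, at 68.8 and 56.5 CPM in the controls and 45.0 and 44.6 CPM with arsenite. Its log2 fold change of -0.40 (SE 0.18) missed the threshold, with an adjusted p of 0.0699 (edgeR, Benjamini-Hochberg), and it passed with library size alone. PSMC1 (ENSG00000100764) was also below both controls, at 17.95 ± 1.31 CPM in the controls and 15.49 ± 0.61 CPM with arsenite (SD, n = 2). It had a log2 fold change of -0.13 and was not called. PSMC2 (ENSG00000161057) had overlapping groups, 84.1 ± 4.5 and 85.7 ± 7.4 CPM (SD, n = 2).

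In the base of the cap, PSMD2 (ENSG00000175166) had the highest log2 fold change of the 31 genes. PSMD2 is the scaffold that docks shuttle proteins carrying ubiquitinated substrates. It held 469.2 and 490.5 CPM in the controls and 798.2 and 722.6 CPM with arsenite. With 12653 counts or more in every library it was also the most counted subunit gene in all 4 libraries. PSMD2 rose by 0.75 on the log2 scale (SE 0.15), or 1.68-fold, at an adjusted p of 2.9e-05 (edgeR, Benjamini-Hochberg).

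PSMD4 (ENSG00000159352), a receptor for ubiquitin chains, held 195.6 and 206.2 CPM in the controls and 322.9 and 271.5 CPM with arsenite. The groups did not overlap. It rose 1.57-fold, with an adjusted p of 0.000586 (edgeR, Benjamini-Hochberg). PSMD1 (ENSG00000173692), the large scaffold next to PSMD2 in the base, had overlapping groups, with 224.1 and 208.8 CPM in the controls and 224.7 and 223.8 CPM with arsenite. Its log2 fold change was 0.13, with a 95% interval from -0.18 to 0.45, and was not called.

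The lid held 3 genes that rose, 1 that fell and 4 that were not called. Among all genes tested, 11.8% were called higher and 18.8% lower. Of the 2878 genes with the highest mean CPM, which include all lid genes but PSMD6 and PSMD12, 27.1% were called higher and 12.2% lower. PSMD8 (ENSG00000099341) rose 1.47-fold, PSMD3 (ENSG00000108344) 1.402-fold and PSMD7 (ENSG00000103035) 1.35-fold, with adjusted p-values of 0.00469, 0.0109 and 0.0367 (edgeR, Benjamini-Hochberg). PSMD7 is the partner of the deubiquitinase PSMD14. It held 93.9 and 93.0 CPM in the controls and 121.0 and 116.9 CPM with arsenite, so that both groups were narrow. Its call was lost in all 4 fits with 1 library left out (adjusted p from 0.0835 to 0.283), with library size alone (0.0975) and with no filter on low counts (0.064, all edgeR, Benjamini-Hochberg), while its log2 fold change stayed between 0.35 and 0.52 in these fits.

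PSMD14 (ENSG00000115233) itself was at 136.8 and 115.5 CPM in the controls and at 110.6 and 106.7 CPM with arsenite. Both arsenite libraries were below both controls, but its log2 fold change of -0.13 was not called, with a 95% interval from -0.46 to 0.19. Whether PSMD7 and PSMD14 differed in their change was not tested. PSMD12 (ENSG00000197170) fell 1.37-fold, from 79.3 and 66.7 CPM in the controls to 50.1 and 50.6 CPM with arsenite (adjusted p = 0.0351, edgeR, Benjamini-Hochberg). The arsenite libraries were nearly equal there, while the controls were further apart. This call was lost with DESeq2's size factors in edgeR (adjusted p = 0.0526), with no filter on low counts (0.0876) and in 3 of the 4 fits with 1 library left out (0.246 to 0.394, all Benjamini-Hochberg). PSMD6 (ENSG00000163636), PSMD11 (ENSG00000108671) and PSMD13 (ENSG00000185627) had overlapping groups and log2 fold changes of 0.13, 0.10 and 0.17.

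Ratios of counts within a library do not depend on how libraries are scaled. Counts of PSMD2 over those of PSMA2, the genes with the highest and the lowest log2 fold change, gave 65.2 in control 1 and 93.0 in control 2, against 278 in arsenite 1 and 330 in arsenite 2. Counts of PSMB6 over those of PSMA4, a pair of well-covered core genes chosen after their values were seen, gave 1.26 and 1.66 in control 1 and control 2, against 3.94 and 3.25 in arsenite 1 and arsenite 2. Since both pairs were taken for their opposite changes, these ratios only describe the libraries and support nothing further.

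By position in the samples, 17 of the 31 genes had both arsenite libraries above both controls and 8 had both below, and 6 overlapped. Among all genes tested these shares were 25.5% above and 41.2% below. Most subunit genes are abundant, and 24 of the 31 were among the 2878 genes tested with the highest mean CPM. Of those 2878 genes, 27.1% were called higher and 12.2% lower, and their median log2 fold change was 0.17. Of the 24 subunit genes there, 14 were called higher and 1 (PSMA4) lower. By position, 16 of the 24 had both arsenite libraries above both controls and 3 had both below, against 43.2% and 29.2% of the 2878 genes. Abundant genes as a whole thus leaned to the higher side too.

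Within the 31 genes, the log2 fold change went with abundance and with gene length. Spearman's rho was 0.651 with the mean CPM and -0.53 with the length, as a description over 31 genes of the same 4 libraries, against 0.168 and -0.129 over all genes tested. Genes that rose had a median length of 2387 bp, genes that fell 5350 bp, and those not called 5455.5 bp, against 4468 bp for all genes tested. Lengths overlapped between these groups, since PSMA6 at 6506 bp and PSMD2 at 5453 bp rose and PSMA1 at 3301 bp fell. The length trend of a library, the rho between gene length and the deviation of log2 CPM from its average over libraries (11299 genes), was 0.208 in control 1, 0.124 in control 2, -0.334 in arsenite 1 and 0.0816 in arsenite 2.

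With each library's length trend removed, 14 subunit genes were higher and 4 lower, against 16.4% and 18.3% of all genes tested. The one lost call was PSMB1, at an adjusted p of 0.0545 (edgeR, Benjamini-Hochberg). Spearman's rho with length over the 31 genes was then -0.419. The part of abundance in these differences was not tested.

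**Figure D3:**
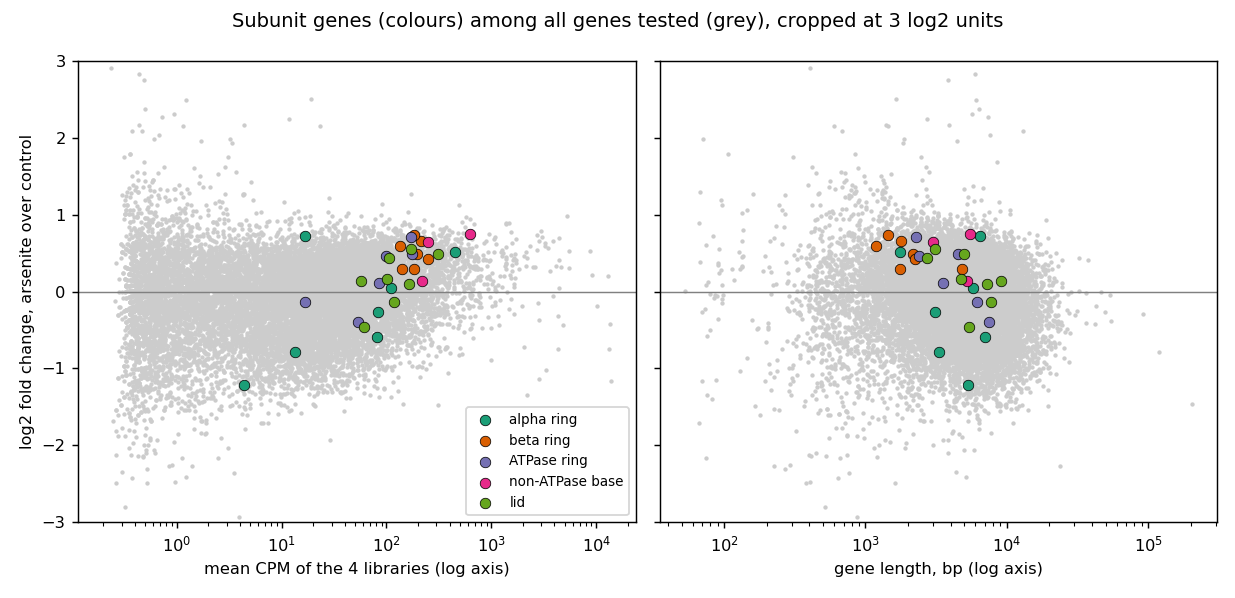
Fitted log2 fold change (arsenite over control) of the 31 subunit genes, coloured by place in the complex, against mean CPM (left) and gene length in bp (right), both on log axes; grey points are all other genes tested, cropped at 3 log2 units either way. Subunit genes with more counts and with shorter lengths tend to lie higher, with rho of 0.651 for CPM and -0.53 for length over the 31 genes.

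The arsenite libraries differed in how far they moved. Arsenite 1 was above arsenite 2 for 28 of the 31 genes (90.3%), against 46.5% of all genes tested, and for 14 of the 15 that rose, PSMA6 being the exception. The median over the 31 genes of the log2 ratio to the control mean was 0.33 in arsenite 1 and 0.15 in arsenite 2. In the controls, control 1 was above control 2 for 17 of the 31 genes (54.8%), near the 50.7% of all genes tested. All 4 genes that fell were higher in control 1 than in control 2.

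Calls depended on single libraries. With 1 library left out, 1 group holds a single library, which is assumed to vary like the other group, so that a call can be lost without a smaller change. Without arsenite 1, only PSMD2 was called higher and only PSMA2 lower, while 1.49% and 4.48% of all genes tested were called. With arsenite 1 left out, every gene called higher except PSMA6 had a smaller log2 fold change than with all libraries. PSMB6 had 0.54 against 0.73, PSMA7 0.32 against 0.51 and PSMB4 0.31 against 0.49, while PSMA6 had 0.74 against 0.72. Of the genes called lower, only PSMD12 had a smaller change there, -0.44 against -0.45, and PSMA1 had -0.84 against -0.79. Without control 1, 6 genes were higher (PSMA6, PSMB6, PSMB7, PSMC3, PSMD2 and PSMD4) and PSMA2 was lower, against 2.49% and 6.97% of all genes. Without control 2, 10 were higher and 5 lower, PSMC6 among the latter, against 11.6% and 19.7%. Without arsenite 2, 14 were higher and PSMA2 alone was lower, against 9.52% and 10.8%. PSMD2 and PSMA2 were the genes called with each of the 4 libraries left out in turn. The direction of all 19 called genes was the same in each of these fits. For each of the 19, both arsenite libraries lay on one side of both controls, so the direction could hardly change when a library was left out.

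The size of the changes was modest. In a test against a 1.2-fold change, 7 subunit genes were higher (PSMA6, PSMB3, PSMB6, PSMB7, PSMC3, PSMD2 and PSMD4) and 3 lower (PSMA1, PSMA2 and PSMA4), against 4.97% and 12.4% of all genes tested. With library size alone, the scaling of the CPM values above, 12 were higher and 5 lower, against 7.87% and 23.1%. That scaling moved the median over all genes tested from -0.02 to -0.10 and that of the 31 genes to 0.21.

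DESeq2's Wald test called 15 subunit genes higher and 4 lower, against 13.8% and 16.6% of all genes it tested, and limma-voom called 15 and 4, against 12.3% and 19.1%. Tests with limma on log2 RPKM with a pseudocount, without TMM scaling, called fewer. On RPKM of the library's own total, 8 subunit genes were higher and 4 lower, against 6.9% and 19.7% of all genes. Among the deposited RPKM of HepG2, 7.14% of values were divided by their own library's total. On the deposited RPKM, 3 were higher and 1 lower, against 1.56% and 5.67% with a pseudocount of 1 and 1.47% and 5.43% with a pseudocount of 0.1. On the deposited RPKM without a filter on low values, 0 subunit genes and 0% of the 27145 genes tested there were called in either direction. An unadjusted p under 0.05 (limma) was reached by 10 of the 31 and by 3833 of those 27145 genes.

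Levels of different subunits were compared per length, as RPKM of the library's own total, which is the CPM divided by the gene length in kilobases. In the controls PSMA7 was highest, at 218.1 ± 11.99 RPKM (SD, n = 2), and PSMA2 was lowest, at 1.17 ± 0.25 RPKM, a range of 187-fold. The median of the 31 genes was 33.6 RPKM in the controls and 43.2 RPKM with arsenite. After PSMA7 came PSMB6 at 99.5 ± 7.0, PSMB1 at 96.4 ± 5.3, PSMB5 at 95.1 ± 3.4, PSMB7 at 94.98 ± 5.6 and PSMB3 at 93.6 ± 5.6 RPKM, and the control libraries of these beta-ring neighbours overlapped. The catalytic subunits were thus level with each other in the controls. With arsenite they stood at 155.9 ± 28.1 for PSMB6, 141.9 ± 13.97 for PSMB7 and 110.4 ± 13.4 RPKM for PSMB5.

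After these, PSMD2 had 88.0 ± 2.8, PSMB4 77.4 ± 2.6, PSMD4 66.4 ± 2.5, PSMC3 59.7 ± 1.3 and PSMD3 54.1 ± 3.9 RPKM in the controls (SD, n = 2). PSMD8, PSMD1, PSMC4, PSMD7 and PSMC5 ranged from 46.7 down to 33.6 RPKM. PSMA3, PSMB2, PSMC2, PSMD11, PSMD13, PSMA5, PSMD14, PSMA4 and PSMD12 ranged from 29.8 down to 13.6 RPKM. In the whole order, 10 of the 30 neighbouring pairs had overlapping control libraries.

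At the bottom, 6 genes were under 10 RPKM in the controls. They were PSMC6 at 8.37 ± 1.16, PSMD6 at 6.13 ± 0.38, PSMA1 at 5.29 ± 0.95, PSMC1 at 2.91 ± 0.21, PSMA6 at 2.00 ± 0.30 and PSMA2 at 1.17 ± 0.25 RPKM (SD, n = 2). The alpha subunits are present in equal numbers in an assembled core, while their RNA in the controls ran from 1.17 RPKM for PSMA2 to 218.1 RPKM for PSMA7. The recovered lengths were 5336 bp for PSMA2 and 1750 bp for PSMA7. Before division by length, the control means were 6.2 CPM for PSMA2 and 381.7 CPM for PSMA7. How far these lengths match the RNA present was not tested. For reads shared with overlapping genes or near-identical copies, the counting rule and the strand setting are among the steps not given in the sources used here. Levels and changes of PSMA1, PSMA2, PSMA6 and PSMC1, each with at most 556 counts in a library, are uncertain to that extent, and the part of such reads was not tested.

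**Figure D4:**
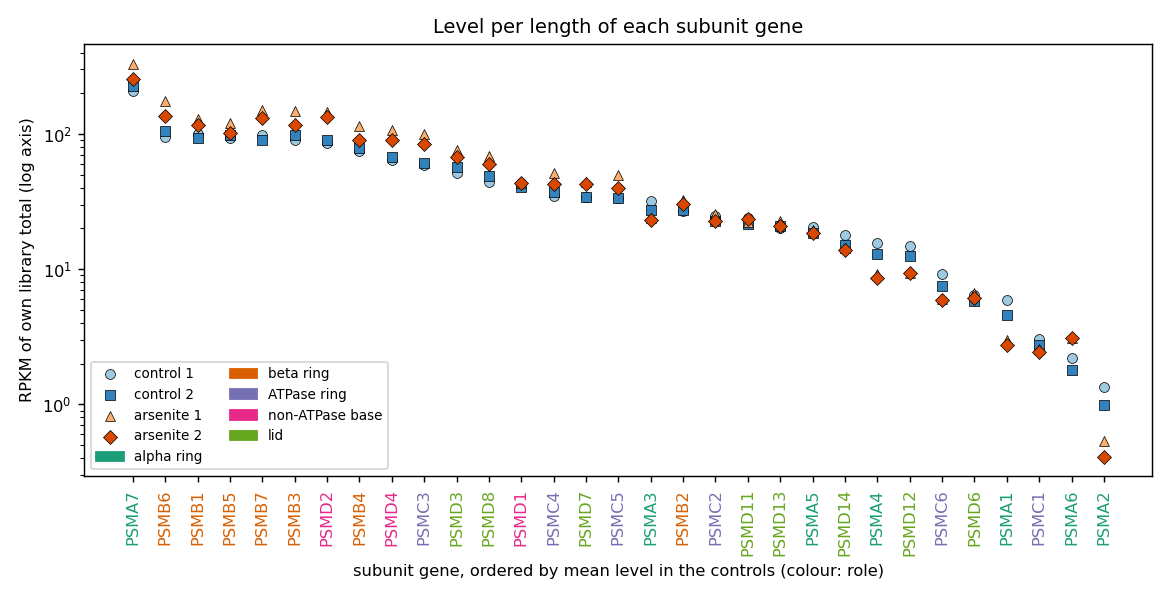
Level per length of each subunit gene (RPKM of the library's own total, log axis) in the 4 HepG2 libraries, ordered by the control mean, with gene names coloured by place in the complex. Beta-ring genes other than PSMB2 lie in the upper end behind PSMA7 at 218.1 RPKM in the controls, and PSMA2, PSMA6, PSMC1 and PSMA1 form the lower end with PSMD6 and PSMC6.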

How the data were processed

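The labels' protocols name a TruSeq kit for the RNA libraries. Tools listed in the submitters' processing notes are STAR 2.4.1d, featureCounts 1.4.6-p4 and bcl2fastq 1.8.4, and the build listed is GRCh38, all without roles. The authors deposited whole-number counts per gene and, separately, RPKM values, per the file headers. The deposited RPKM values were divided by totals that cycle every 14 rows, so that 7.14% of HepG2 values were divided by their own library's total. Gene lengths were recovered from this cycle, and deposited RPKM served in alternatives only.

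Counts of the 4 libraries were fitted in R 4.3.3 with edgeR 4.0.16 (filterByExpr, TMM, quasi-likelihood test, 2-sided), and p-values were adjusted over 14389 genes by Benjamini-Hochberg, with a threshold of 0.05. SEs are the log2 fold change over the square root of F, and 95% intervals are 1.96 SE either way. Alternatives used DESeq2 1.42.0, limma 3.58.1 (voom, or log2(RPKM + 1) and log2(RPKM + 0.1) with a mean of at least 0.5), other scalings and filters, a 1.2-fold test, the length trend as an offset (loess, span 0.5) and each library left out. The main edgeR fit, DESeq2 and limma-voom were tested on counts simulated without a length trend. The other settings of edgeR and the limma fits on RPKM were not. Tables were made in Python 3.11.15 with pandas 2.3.3 and numpy 2.4.6.

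Members and lists were chosen with earlier results of these data known. The genes given in full were the catalytic subunits and the 3 highest and 3 lowest by log2 fold change; others were named by role. Symbols were paired with identifiers by the order of the member list. The reference tables used here list mouse genes and matched 0 human identifiers, so related proteasome genes, cell type markers, coordinates, promoter motifs and sequences were not analysed here.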

Additional observations from a re-analysis of the deposited data

How the results depend on the processing

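In each of 19 alternatives that tested them, the 15 genes called higher and the 4 called lower kept their direction. The 1.2-fold test, edgeR's robust option and a looser threshold share the log2 fold changes of the main fit, so direction could not change there. It could hardly change with a library left out, since the groups of these genes did not overlap. The count called higher was 7 against a fold of 1.2, 3 with the deposited RPKM at a pseudocount of 1 or 0.1 and 8 with own-total RPKM. With the deposited RPKM 1 gene was lower at either pseudocount. Without its filter 0 were called either way (limma, 10 of the 31 at an unadjusted p under 0.05). Of the 27145 genes tested there, 0 were called (limma, 3833 at an unadjusted p under 0.05). DESeq2 and limma-voom each called 15 higher and 4 lower. With 1 library left out, 1 to 14 were higher (lowest without arsenite 1, highest without arsenite 2) and 1 to 5 lower, with a median log2 fold change from 0.24 to 0.48. All genes called numbered 2498 against the fold of 1.2, 912 and 869 with the deposited RPKM at pseudocounts of 1 and 0.1, and 860 to 4504 with a library left out. Fewer samples entered the latter. Own-total RPKM differ from the deposited values in their divisors. The same limma fit on own-total RPKM, with a pseudocount of 1, called 3310 of all genes. For deposited RPKM the cause was not tested. Changes of sign came in genes that were not called. PSMA5 had -0.033 with library size alone, -0.031 with own-total RPKM, -0.12 with all settings of deposited RPKM and -0.036 to 0.162 with a library left out. With deposited RPKM, PSMC2 had -0.034 (-0.035 at 0.1), PSMD6 -0.035 (-0.039 at 0.1) and PSMD11 -0.17 (-0.18 at 0.1). PSMD14 had -0.267 to 0.013 with a library left out. No paired analysis was possible because the labels carry no replicate numbers. The library numbers used here only follow the order of the samples. Counting error was widest for PSMA2, with at most 194 counts in a library.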
